A study of Mus musculus with 6 samples.

Results

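The Cyp4 genes described here are Cyp4a10, Cyp4a12a, Cyp4a12b, Cyp4a14, Cyp4a31, Cyp4a32, Cyp4f13, Cyp4f14, Cyp4f15 and Cyp4v3, which were taken by symbol as 10 of the 49212 genes counted. Liver RNA came from C57BL/6J mice aged 15 weeks, with 3 libraries labelled Placebo and 3 labelled as DHT pellet treated mice. DHT, dihydrotestosterone, is an androgen that cannot be converted to oestrogen, and a pellet that releases it is used to model polycystic ovary syndrome in mice. The series' title asks about androgen, the liver clock and fatty liver in this model. Whether each library is its own animal is not stated in the labels, and the p-values then reflect no more than the scatter among these libraries, which may be technical. The labels also give no sex and no hour of collection.

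CYP4 enzymes are cytochromes P450 that add a hydroxyl group to the last carbons of a fatty acid chain, the first step of omega oxidation. The products are oxidised further to dicarboxylic acids and shortened in peroxisomes. The CYP4A enzymes act on medium and long saturated chains and on arachidonic acid, the CYP4F enzymes also on leukotrienes, and CYP4V on medium chains. In mouse liver Cyp4a10 and Cyp4a14 are classical targets of the fatty acid receptor PPARα, whereas Cyp4a12 is known for its male-biased, androgen-dependent expression.

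All 6 Cyp4a genes lie within one cluster on chromosome 4 (GRCm38, coordinates of the deposited tables). Cyp4a12a (115299046 to 115332815) and Cyp4a12b (115411624 to 115439034) are on its plus strand, followed by Cyp4a14 (115486200 to 115496142) on the minus strand. Cyp4a10 (115518264 to 115533649), Cyp4a31 (115563649 to 115579015) and Cyp4a32 (115600969 to 115621602) lie beyond it on the plus strand. The 3 Cyp4f genes are on chromosome 17, with Cyp4f15 (32685627 to 32703352) on the plus strand and Cyp4f14 (32905071 to 32917342) and Cyp4f13 (32924688 to 32947402) on the minus strand. Cyp4v3 is on the minus strand of chromosome 8 (45304944 to 45333216), and 8.22% of its exon length overlaps exons of Klkb1, the plasma prekallikrein gene. No exon of the other 9 genes overlaps one of another counted gene.

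The copies within the cluster are so alike that reads can be hard to assign. In GENCODE M21 transcripts (GRCm38), the coding sequences of Cyp4a12a and Cyp4a12b are 98.6% identical, and those of Cyp4a10 are 97.2% identical to Cyp4a32 and 96.6% to Cyp4a31. Cyp4a14 is at 77.1% identity to both Cyp4a10 and Cyp4a12a. Of all stretches of 150 bases, the read length, 74.4% in the Cyp4a12a transcript and 74.1% in that of Cyp4a12b occur in no transcript of another gene. That share was 95.7% for Cyp4a10, 95.8% for Cyp4a31, 92.0% for Cyp4a32, 95.5% for Cyp4v3 and 100% for Cyp4a14 and the Cyp4f genes. The 90 coding bases that follow are shown because they hold the most differences between the Cyp4a12 copies that any such stretch within an exon holds. Both are from exon 6, coding bases 661 to 750, plus strand, chr4:115326659-115326748 for Cyp4a12a and chr4:115432912-115433001 for Cyp4a12b, 5′ to 3′, with the 7 differing bases in capitals.
Cyp4a12a: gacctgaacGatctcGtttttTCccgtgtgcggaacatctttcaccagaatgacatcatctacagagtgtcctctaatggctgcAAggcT
Cyp4a12b: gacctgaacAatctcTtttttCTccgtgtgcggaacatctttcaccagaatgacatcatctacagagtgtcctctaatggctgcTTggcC
The stretch chosen in the same way for Cyp4a10 and its close relatives is from exon 2, coding bases 190 to 279, and differs at 13 bases, again in capitals. It lies on the plus strand at chr4:115519630-115519719 in Cyp4a10, chr4:115565010-115565099 in Cyp4a31 and chr4:115602260-115602349 in Cyp4a32.
Cyp4a10: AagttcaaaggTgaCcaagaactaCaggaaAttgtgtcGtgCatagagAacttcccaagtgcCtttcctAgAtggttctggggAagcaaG
Cyp4a31: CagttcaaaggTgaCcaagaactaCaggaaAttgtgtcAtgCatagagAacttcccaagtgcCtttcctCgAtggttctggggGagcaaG
Cyp4a32: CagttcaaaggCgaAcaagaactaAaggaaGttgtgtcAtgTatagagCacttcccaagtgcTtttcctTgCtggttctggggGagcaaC

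Total counts per library lay between 41336844 and 60209462, and the 10 genes took 0.0907% to 0.211% of them. The lowest share was in placebo 3. The libraries labelled DHT held 68.5 to 73.2 CPM (counts scaled to a common library size) of Ddx3y, a Y-linked RNA helicase gene, against 0.0591 to 0.103 CPM in placebo. Xist, the RNA of the inactive X, was at 0.107 to 0.515 CPM with DHT and at 25.2 to 255 CPM in placebo. The Y-linked Ddx3y, Eif2s3y, Kdm5d and Uty were all called higher, and Xist lower, a call that Xist lost without DHT 1 or DHT 2 (up to 0.0645). By these transcripts the DHT libraries look male and the placebo libraries female, although the labels give no sex. Sex and the treatment label thus divide the libraries in the same way and cannot be told apart in any comparison below. Wording such as rose, fell or with DHT only compares the libraries so labelled. Hepatocyte markers, 12 in all and each detected, summed to 108944 to 153575 CPM in placebo and 83907 to 102915 CPM with DHT. None of the 12 was called by edgeR, against 1.65% of all genes tested. An unadjusted p under 0.05 was reached by 3, against 15.9% of all genes tested. In these whole-liver libraries, fewer cells of a type and less RNA per cell cannot be told apart.

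Transcripts of the Cyp4a12 copies, which encode male-biased arachidonic acid omega-hydroxylases, were close to absent from placebo and abundant with DHT. Cyp4a12a had 0.0860, 0.315 and 0.329 CPM in placebo 1, 2 and 3 and 82.1, 192 and 98.4 CPM in DHT 1, 2 and 3, scaled by the trimmed mean of M values (TMM). Every DHT library stood far above every placebo library, and DHT 2 was the highest. Cyp4a12b had 3, 0 and 2 counts in placebo, or 0.0516, 0 and 0.0411 CPM, and 4.12, 21.7 and 21.4 CPM with DHT. Its groups did not overlap either, but DHT 1 held less than DHT 2 and DHT 3. The count of 0 in placebo 2 allows up to 0.0591 CPM on the same scale (3 counts), a limit that covers counting error only.

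By edgeR's quasi-likelihood test with Benjamini-Hochberg adjustment over 15126 genes, both Cyp4a12 copies rose. For Cyp4a12a the log2 fold change of DHT over placebo was 9.0 ± 0.65 (SE, adjusted p = 0.000806), from 0.243 ± 0.137 to 124 ± 59.0 CPM (SD, n = 3 each). For Cyp4a12b it was 8.86 ± 0.96 (adjusted p = 0.00518), from 0.0309 ± 0.0273 to 15.7 ± 10.1 CPM. Cyp4a12a was called in each of 15 alternative analyses. Cyp4a12b lost its call without placebo 1 (adjusted p = 0.0508) and in limma voom (adjusted p = 0.152). Of the counts assigned to either copy, Cyp4a12b took 4.78%, 10.2% and 17.9% in DHT 1, 2 and 3, a split that depends on how reads common to both were treated, which the sources used here do not give.

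The PPARα-responsive genes Cyp4a10 and Cyp4a14 did not pass the test. Cyp4a10 had 318, 519 and 139.9 CPM in placebo 1, 2 and 3 and 398, 378 and 245 CPM in DHT 1, 2 and 3. The DHT values all fell inside the placebo range, with placebo 2 highest and placebo 3 lowest. Its log2 fold change was 0.06 ± 0.46 (95% interval −1.0 to 1.12, adjusted p = 0.964), and the sign turned when placebo 3, DHT 1 or DHT 2 was left out (−0.30, −0.07 and −0.01). Cyp4a14 had 497, 525 and 209.6 CPM in placebo and 751, 793 and 377 CPM with DHT. Here DHT 1 and DHT 2 lay above all placebo libraries and DHT 3 inside their range. The log2 fold change of Cyp4a14 was 0.64 ± 0.43 (95% interval −0.36 to 1.64, adjusted p = 0.502), positive in all 15 alternative analyses and called in none.

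**Figure D1:**
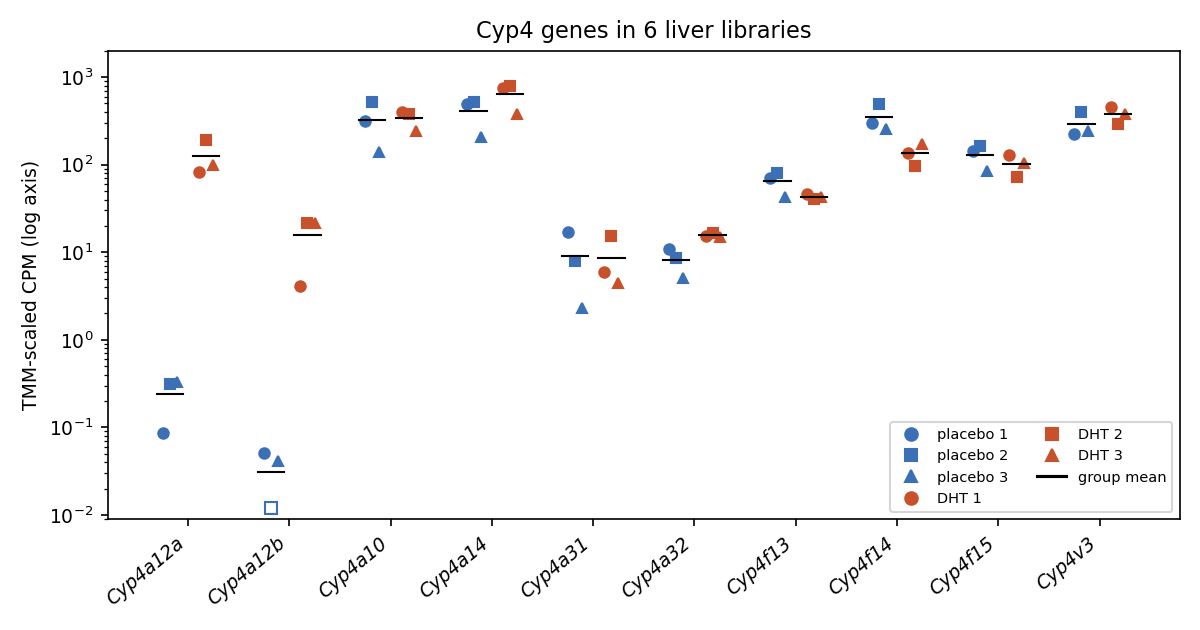
TMM-scaled CPM on a log axis for each of the 10 Cyp4 genes, with 1 point per library (blue placebo, orange DHT, shape by library number) and a line at each group mean; the open square stands for the 0 counts of Cyp4a12b in placebo 2. Cyp4a12a lies between 82.1 and 192 CPM in DHT and at most at 0.329 CPM in placebo, while the DHT points of Cyp4a10 lie within its placebo range.

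Within each library, the Cyp4a12 copies were set against Cyp4a10 and Cyp4a14 as log2 ratios of counts per kilobase, a measure that no scaling between libraries can change. Cyp4a12a relative to Cyp4a10 was at −11.91, −10.84 and −8.89 in placebo 1, 2 and 3 and at −2.48, −1.18 and −1.52 in DHT 1, 2 and 3. The ratio thus differed by 8.82 between the group means of −10.55 ± 1.53 and −1.72 ± 0.67 (SD, n = 3 each). Relative to Cyp4a14 the difference was 8.37 for Cyp4a12a. Cyp4a12b differed by 8.41 relative to Cyp4a10 and by 7.96 relative to Cyp4a14. Single libraries moved the sizes of these differences and not their sign. For Cyp4a12a they were 8.14 and 7.57 (to Cyp4a10 and Cyp4a14) without placebo 1, and 9.65 and 9.12 without placebo 3. For Cyp4a12b they were 7.14 and 6.89 without placebo 2, 9.28 and 8.74 without placebo 3, 9.33 and 8.90 without DHT 1, and 7.80 and 7.22 without DHT 3. With 2 in place of 0.5 added to each count, those of Cyp4a12b were 7.35 and 6.90. None of the 4 ratios overlapped between the groups, and each gave p = 0.1 in a two-sided exact permutation test over the 6 libraries, also after adjustment over the 4, which is the smallest p that 3 against 3 libraries allow. In all 3 DHT libraries both Cyp4a12 copies still stood below Cyp4a10 and Cyp4a14 per kilobase.

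**Figure D2:**
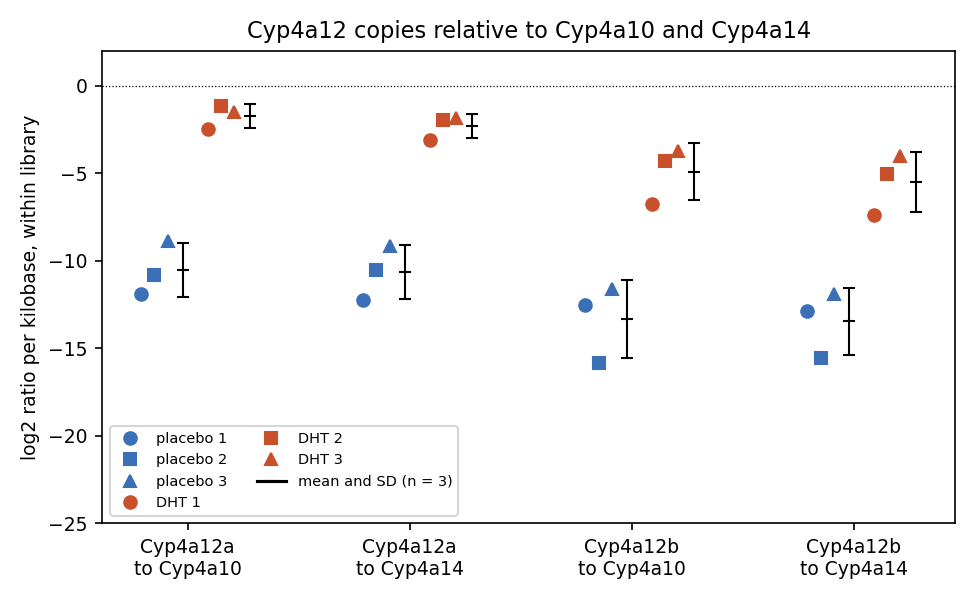
Log2 ratio per kilobase of each Cyp4a12 copy to Cyp4a10 or Cyp4a14 within each library (blue placebo, orange DHT, shape by library number), with the mean and SD of 3 libraries beside each group. The groups are apart in each ratio, by 7.96 to 8.82 between means, and every point lies under 0, where the levels would be equal.

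Cyp4a31 and Cyp4a32, close relatives of Cyp4a10 with much lower levels, are less well characterised enzymes. Cyp4a32 had 10.9, 8.55 and 5.12 CPM in placebo and 15.5, 16.6 and 14.8 CPM with DHT, without overlap. Its log2 fold change of 0.93 ± 0.31 did not pass (adjusted p = 0.207). With the replicate number as a block it was 0.99 (adjusted p = 0.0146), in a fit that called 10.7% of all genes. Cyp4a31 had 17.0, 8.04 and 2.32 CPM in placebo and 5.94, 15.1 and 4.47 CPM with DHT. These groups overlapped over most of their range, and the log2 fold change was −0.10 ± 0.70 (adjusted p = 0.963), with the sign turning without placebo 1 (0.71), DHT 1 (0.11) or DHT 3 (0.21).

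Among the Cyp4f genes, Cyp4f14, a leukotriene B4 omega-hydroxylase gene, was lower in every DHT library. It had 299.7, 488 and 255 CPM in placebo 1, 2 and 3 and 136, 97.5 and 173 CPM in DHT 1, 2 and 3, without overlap. The log2 fold change was −1.36 ± 0.35 (95% interval −2.17 to −0.55), which did not pass over all genes (adjusted p = 0.118). With the replicate number as a block it was −1.34 (adjusted p = 0.00309). DESeq2 (adjusted p = 0.00586), limma voom (adjusted p = 0.0272) and the fit without placebo 3 (adjusted p = 0.0231) also called it lower, while the other fits that left out 1 library did not (up to 0.41).

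Cyp4f13 and Cyp4f15, which encode further fatty acid and leukotriene hydroxylases, did not pass the test. Cyp4f13 had 69.7, 80.4 and 43.3 CPM in placebo and 45.9, 40.5 and 42.8 CPM with DHT, and placebo 3 alone fell within the DHT range. Its log2 fold change was −0.58 ± 0.28 (adjusted p = 0.350), and without placebo 3 it was −0.81 (adjusted p = 0.0408). Cyp4f15 had 144, 161 and 85.6 CPM in placebo and 129, 71.6 and 106 CPM with DHT, which overlapped (−0.35 ± 0.34, adjusted p = 0.635). The ratio of Cyp4f14 to Cyp4f15 per kilobase was 1.97, 2.87 and 2.83 in placebo 1, 2 and 3 and 0.997, 1.29 and 1.55 in DHT 1, 2 and 3. Cyp4f14 therefore stood well above Cyp4f15 in each placebo library and close to it in DHT 1.

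Cyp4v3, the mouse relative of the human retinal dystrophy gene CYP4V2, had 224, 403 and 243 CPM in placebo and 458, 295 and 375 CPM with DHT. The groups overlapped, and its log2 fold change of 0.37 ± 0.32 did not pass (adjusted p = 0.598). Its count could be raised or lowered by reads where its exons overlap those of Klkb1, since how such reads were counted is not given.

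Counted over the family, 2 of the 10 genes were called higher and 0 lower by edgeR, against 1.65% of all 15126 genes tested called (0.952% higher and 0.701% lower). At an unadjusted p under 0.05 there were 4, the Cyp4a12 copies, Cyp4a32 and Cyp4f14, against 15.9% of all genes. All 10 passed the low-count filter, the Cyp4a12 copies only through the DHT group. These near-identical copies gave 1 call when summed. The 10 genes were chosen with earlier results of these data known, so the shares of all genes are background and not a test. The median log2 fold change was 0.22 over the 10 and −0.02 over all genes tested. The groups did not overlap in 4 of the 10, 3 higher and 1 lower, against 23.6% of all genes (12.7% higher and 10.9% lower). With the replicate number as a block, 3 were called higher and 1 lower, against 10.7% of all genes called (5.44% higher and 5.28% lower). DESeq2 called 2 higher and 1 lower, against 7.02% (3.29% and 3.73%), and limma voom 1 and 1, against 4.92% (2.58% and 2.34%). Without placebo 3, 2 were called higher and 2 lower, against 5.54% (2.73% and 2.81%). With both libraries numbered 3 left out, chosen after seeing the data, 2 were higher and 1 lower, against 2.95% (1.75% and 1.2%). Without placebo 1 only Cyp4a12a was called, against 0.607%. Without placebo 2, DHT 1, DHT 2 or DHT 3 the calls were the Cyp4a12 copies, against 0.671%, 0.609%, 0.539% and 1.06%. The same held with DESeq2 size factors (1.64%), library size alone (1.96%, 1.37% higher and 0.588% lower), no low-count filter (1.97%) and a minimum of 1 CPM in 3 libraries (1.67%).

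**Figure D3:**
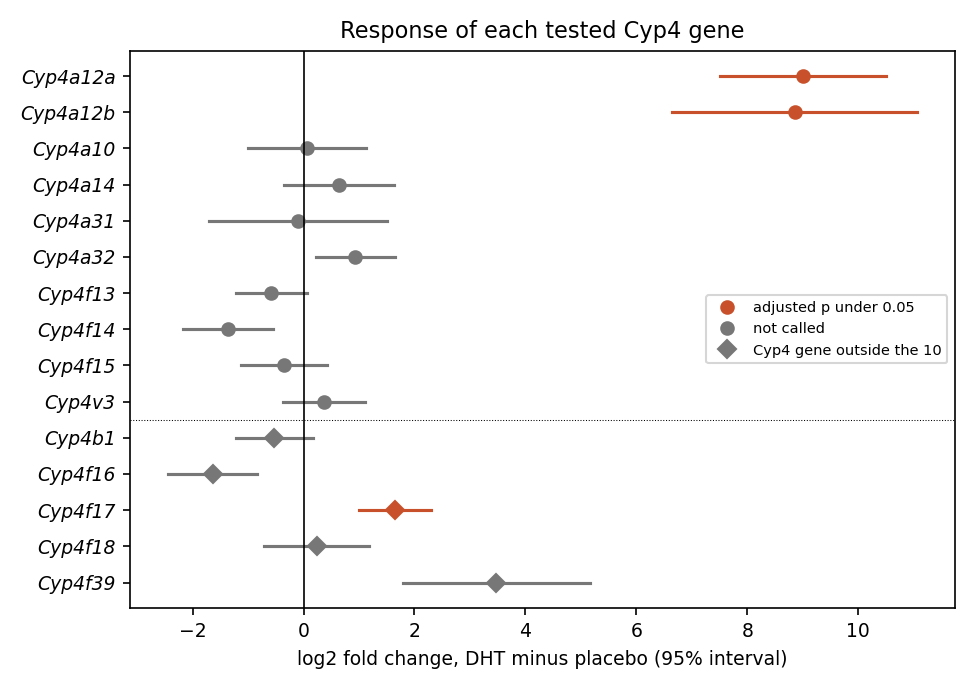
Log2 fold change (DHT minus placebo) with its 95% interval for the 10 Cyp4 genes (circles) and the other tested Cyp4 genes (diamonds), orange where the adjusted p was under 0.05. The Cyp4a12 copies stand at 9.0 and 8.86, and the other 8 genes lie between −1.36 and 0.93.

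Levels of different genes were compared per length, as TPM (the length-scaled share of transcripts), computed from the counts and the deposited exon lengths. In placebo the order of mean TPM was Cyp4a14 (312), Cyp4a10 (309), Cyp4f14 (285), Cyp4v3 (149.5), Cyp4f15 (112), Cyp4f13 (38.1), Cyp4a32 (10.5), Cyp4a31 (7.18), Cyp4a12a (0.193) and Cyp4a12b (0.0240). The ranges of neighbours overlapped except between Cyp4f15 and Cyp4f13, Cyp4f13 and Cyp4a32, Cyp4a31 and Cyp4a12a, and Cyp4a12a and Cyp4a12b. The last gap rests on 5 against 3 counts in placebo 1, too few to tell the copies apart. With DHT the order was Cyp4a14 (562), Cyp4a10 (367), Cyp4v3 (223), Cyp4f14 (127), Cyp4a12a (116), Cyp4f15 (101), Cyp4f13 (29.3), Cyp4a32 (23.1), Cyp4a12b (14.7) and Cyp4a31 (7.77). Here neighbours were apart only between Cyp4v3 and Cyp4f14, Cyp4f15 and Cyp4f13, and Cyp4f13 and Cyp4a32. Cyp4a12a thus moved from the ninth to the fifth place, among genes whose ranges it shared. That place also depends on how reads common to both Cyp4a12 copies were treated, which is not given. Of the 150-base stretches of Cyp4a12a 74.4% are unique, against 100% for Cyp4f14 and Cyp4f15.

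The family's summed level overlapped between the groups, while the shares taken by the Cyp4a12 copies and the Cyp4f genes did not. The 10 genes added up to 1214, 1808 and 649 TPM in placebo 1, 2 and 3 and to 1787, 1737 and 1192 TPM in DHT 1, 2 and 3. The Cyp4a12 copies took 0.00916%, 0.0151% and 0.0411% of that sum in placebo and 4.61%, 11.8% and 8.99% with DHT. The 3 Cyp4f genes took 33.5%, 34.6% and 42.1% in placebo and 16.4%, 11.2% and 23.8% with DHT. Their summed level, in contrast to that share, overlapped, at 407, 626 and 273 TPM in placebo and 294, 195 and 283 TPM with DHT. Cyp4a10 and Cyp4a14 together took 54.8%, 52.1% and 39.5% in placebo and 61.8%, 64.5% and 47.3% with DHT, and these ranges overlapped. Placebo 3 and DHT 3 had the lowest share of Cyp4a10 and Cyp4a14 and the highest share of Cyp4f genes in their groups.

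**Figure D4:**
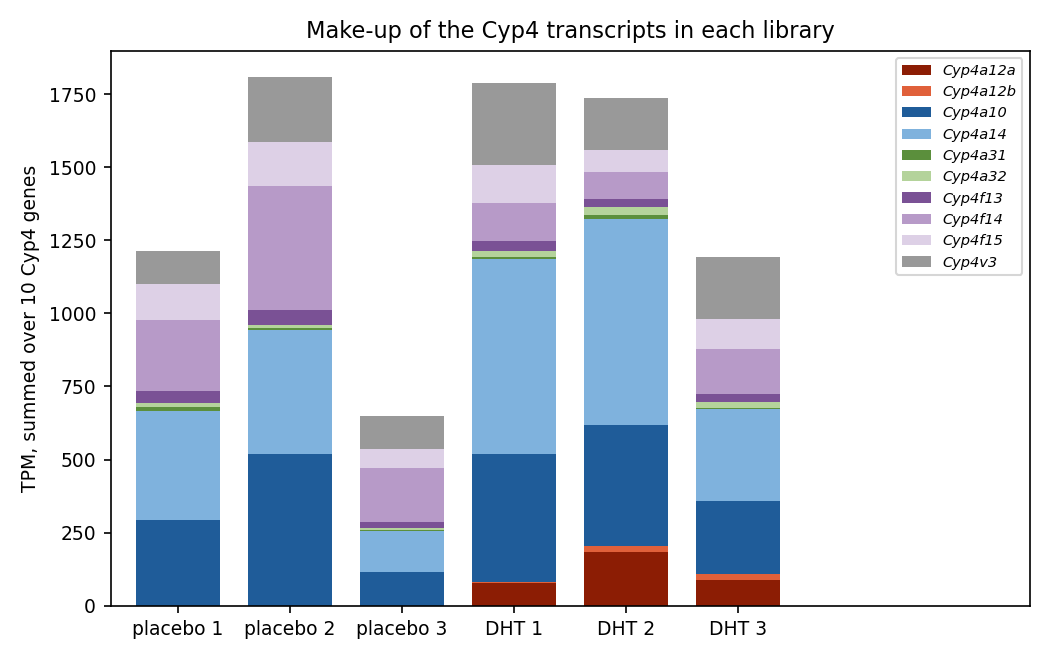
TPM of the 10 Cyp4 genes stacked by gene for each library, computed from counts and exon lengths. The dark red Cyp4a12a segment is visible only in the 3 DHT libraries (78.4 to 183 TPM), and the purple Cyp4f segments are shorter there than in placebo 1 and 2.

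Other Cyp4 genes were mostly near or under the limit of detection. Of 14 listed, 5 were tested, and 1 of these was called higher and 0 lower, against 0.952% and 0.701% of all genes. At an unadjusted p under 0.05 there were 3, against 15.9% of all genes. Cyp4f17, a little studied relative of the leukotriene hydroxylases, had 2.72, 3.61 and 2.36 CPM in placebo and 8.59, 7.94 and 10.7 CPM with DHT. Its log2 fold change was 1.65 ± 0.28 (adjusted p = 0.0315), and the call was kept without placebo 3 but lost when any other single library was left out (up to 0.135). Cyp4f16 had 5.95, 3.45 and 3.60 CPM in placebo and 1.33, 1.73 and 1.10 CPM with DHT and did not pass (−1.64 ± 0.35, adjusted p = 0.0702), but was called lower with the replicate block (adjusted p = 0.00128), without placebo 3 (adjusted p = 0.0212) and in 5 of 15 alternatives in all. Cyp4f39, an omega-hydroxylase of very long chains in skin, had 2, 2 and 0 counts in placebo and 13, 23 and 13 with DHT (3.47 ± 0.73, adjusted p = 0.0682), and was called higher with the block (adjusted p = 0.00169), without placebo 3 (adjusted p = 0.0436) and in 5 of 14 alternatives in all. Cyp4b1 (−0.52 ± 0.30) and Cyp4f18 (0.24 ± 0.41) did not pass (adjusted p = 0.427 and 0.811). The 9 not tested held at most 10 counts in any library, and Cyp4a29 and Cyp4b1-ps1 had none.

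Targets of PPARα were examined because Cyp4a10 and Cyp4a14 belong among them. Of 44 tested genes of that list, 5 were called higher and 1 lower by edgeR, against 0.952% and 0.701% of all genes. At an unadjusted p under 0.05 there were 18, against 15.9% of all genes. The median log2 fold change of the list was 0.39. Fgf21, a fasting hormone gene, had 0.808, 0.414 and 0.596 CPM in placebo and 11.1, 16.2 and 5.77 CPM with DHT (4.18 ± 0.48, adjusted p = 0.00708). Acaa1b, a peroxisomal thiolase gene of the chain-shortening step, had 488, 710 and 418 CPM in placebo and 2102, 1932 and 1516 CPM with DHT (1.78 ± 0.31, adjusted p = 0.0332). Gpd1, the glycerol-3-phosphate dehydrogenase gene, rose by 1.90 ± 0.29 in log2 terms (adjusted p = 0.0199), and Cd36, a fatty acid transporter gene, by 2.17 ± 0.39 (adjusted p = 0.0372). The fifth was Crat, the carnitine acetyltransferase gene (1.94 ± 0.37, adjusted p = 0.0469), named after its value was seen. Acot3, a peroxisomal thioesterase gene, fell by 2.79 ± 0.53 in log2 terms (adjusted p = 0.0460). The block called 13 higher and 2 lower, against 5.44% and 5.28% of all genes. Leaving out placebo 1, 2 or 3 or DHT 1, 2 or 3 left 1, 1, 10, 1, 1 and 3 called higher and 0 lower each time. Of all genes, these fits called 0.607%, 0.671%, 5.54%, 0.609%, 0.539% and 1.06%. Fgf21 was called in each of these fits, Gpd1 and Cd36 only without placebo 3 or DHT 3, and Acot3 in none.

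Enzymes that work beside CYP4 in omega oxidation moved in both directions. Of 30 tested, 2 were called higher and 2 lower, against 0.952% and 0.701% of all genes, with a median log2 fold change of 0.17. At an unadjusted p under 0.05 there were 12, against 15.9% of all genes. Por, which encodes the reductase that supplies electrons to all microsomal P450 enzymes, CYP4 included, had 883, 1284 and 552 CPM in placebo and 157, 114 and 98.1 CPM with DHT. Por fell by 2.88 ± 0.39 in log2 terms (adjusted p = 0.0125), without overlap, and lost the call without placebo 1 or DHT 2 (up to 0.0818). Scp2, a peroxisomal thiolase and lipid carrier gene, had 1779, 1506 and 2035 CPM in placebo and 5317, 4709 and 4416 CPM with DHT (1.44 ± 0.27, adjusted p = 0.0393), a call kept without placebo 3 and lost without any other 1 library (up to 0.2). Acaa1b and Acot3 are on both lists, and Acaa1b, like Scp2, kept its call only without placebo 3. The block called 8 higher and 4 lower, against 5.44% and 5.28% of all genes. Without placebo 1, 2 or 3 or DHT 1, 2 or 3 there were 0, 0, 3, 0, 0 and 0 called higher. In the same order, 0, 1, 1, 1, 0 and 1 were called lower. Of all genes, those fits called 0.607%, 0.671%, 5.54%, 0.609%, 0.539% and 1.06%.

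Receptors and coregulators of the PPAR family were not called in either direction by edgeR (0 of 16, against 1.65% of all genes), with a median log2 fold change of 0.08. At an unadjusted p under 0.05 there was 1, against 15.9% of all genes. DESeq2, limma voom and the block each called 1 higher and 0 lower, against 3.29%, 2.58% and 5.44% of all genes called higher. Pparg, the adipogenic family member, had 9.79, 11.1 and 6.11 CPM in placebo and 22.5, 29.0 and 16.8 CPM with DHT (1.34 ± 0.32, adjusted p = 0.0967), and ranges of the groups did not overlap. With the block it was called higher (1.35, adjusted p = 0.000329), as in 6 of 15 alternatives, among them the fit without placebo 3 (adjusted p = 0.0403). Ppargc1a (−0.77 ± 0.35, adjusted p = 0.335) and Ppargc1b (−0.81 ± 0.45, adjusted p = 0.414), both coactivator genes, and Nrip1 (0.37 ± 0.27, adjusted p = 0.525), a corepressor gene, did not pass. Without placebo 3, Ppargc1a (adjusted p = 0.0341) and Ppargc1b (adjusted p = 0.0419) were called lower. For Ppara itself, named after its value was seen, the estimate was −0.14 ± 0.42 (adjusted p = 0.900).

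Male-biased liver genes other than Cyp4a12 were called higher in 6 of 25 and lower in 0, with a median log2 fold change of 1.61. Over all genes tested, 0.952% were called higher and 0.701% lower. The groups did not overlap in 13 of the 25 higher and in 1 lower, against 12.7% and 10.9% of all genes. The 1 lower was Egfr (−1.31 ± 0.35, adjusted p = 0.128), named after its value was seen. Elovl3, a fatty acid elongase gene, had 0.860, 8.67 and 5.41 CPM in placebo and 261, 178 and 456 CPM with DHT (5.91 ± 0.86, adjusted p = 0.0174). Cyp2d9, a steroid hydroxylase gene, had 37.0, 79.1 and 60.1 against 636, 840.2 and 1006 CPM (3.82 ± 0.38, adjusted p = 0.004). C6, a complement gene (3.13 ± 0.41, adjusted p = 0.0119), and Susd4, a complement regulator gene (3.15 ± 0.43, adjusted p = 0.0126), rose as well. Female-biased genes were called lower in 17 of 31 and higher in 1, Cd36, against the same shares of all genes, with a median of −3.92. Those with the smallest p were Cyp2c69, Sult2a2, Cyp2c40 and A1bg, which fell by 8.07 to 10.34 on the log2 scale. Both lists hold genes chosen with earlier results of these libraries known. When 1 library was left out, the fewest male-biased genes called higher were 3, without placebo 2 or DHT 2. The fewest female-biased genes called lower were 8 and 9, without DHT 2 and placebo 2, fits that called 0.539% and 0.671% of all genes. The block called 10 male-biased genes higher and 1 lower, against 5.44% and 5.28% of all genes. Elovl3 lost its call with the block (adjusted p = 0.11) and without placebo 2 or placebo 3 (up to 0.0763), and Susd4 without placebo 1, placebo 2 or DHT 2 (up to 0.093).

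**Figure D5:**
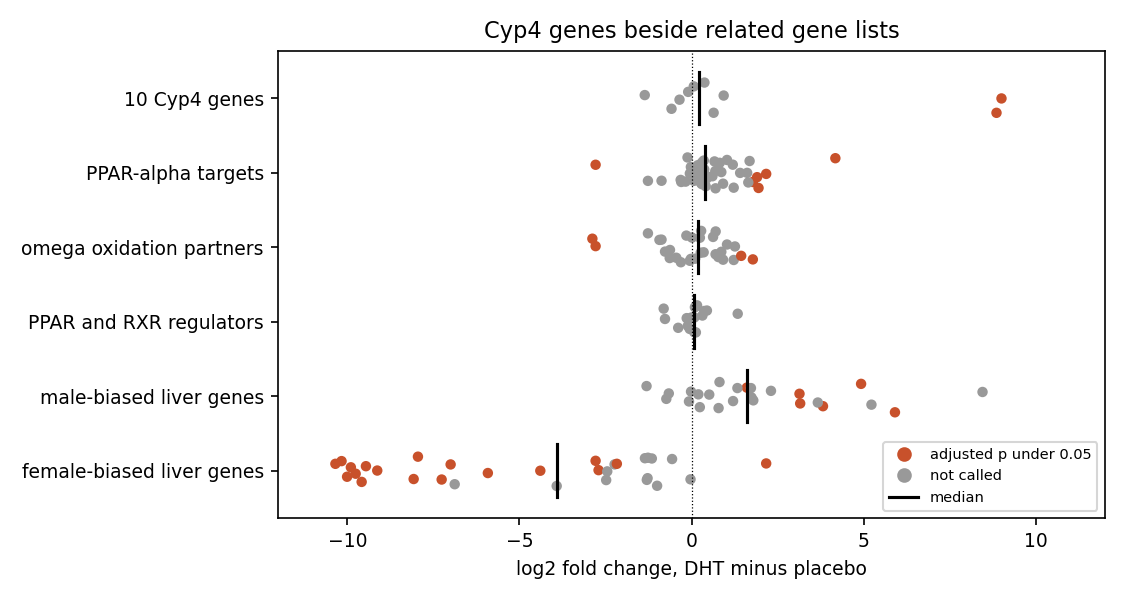
Log2 fold change (DHT minus placebo) of each tested gene in the 10 Cyp4 genes and 5 related lists, orange where the adjusted p was under 0.05, with a black line at each median and points spread vertically for clarity only. The medians are 0.22 for the Cyp4 genes, 0.39 for PPARα targets, 1.61 for male-biased and −3.92 for female-biased genes.

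Likeness to other genes was measured as the root mean square difference of centred log2 CPM over the 6 libraries. The search covered 11947 genes with a mean of at least 1 CPM. It left out the 10 Cyp4 genes, so Cyp4a12b could not appear beside Cyp4a12a. The genes most like Cyp4a12a were the Y-linked Eif2s3y (0.41), Kdm5d (0.79) and Ddx3y (0.83). Eif2s3y had 0.0172, 0.0985 and 0.0617 CPM in placebo and 45.6, 54.3 and 54.4 CPM with DHT. Those most like Cyp4a10 were Gcn1l1 (0.037), Nedd4 (0.063) and Mfn2 (0.065), and those most like Cyp4a14 included Ywhag (0.078) and Tmem184b (0.091). Gcn1l1 had 23.1, 39.9 and 10.3 CPM in placebo and 29.2, 26.7 and 17.7 CPM with DHT, with its lowest value in placebo 3, as in Cyp4a10. Ywhag had 97.0, 110.4 and 37.8 against 140.2, 158 and 78.2 CPM. In Cyp4a10, Cyp4a14 and these 5 genes, library 3 was the lowest of each group. The 5 genes were picked for their likeness over the same 6 libraries, so the shared low follows from that choice.

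Markers of other liver cells were examined as whole lists. Macrophage markers (11) summed to 283 to 433 CPM in placebo and 311 to 496 CPM with DHT, and endothelial markers (10) to 197 to 438 and 195 to 263 CPM, with overlap. Stellate cell markers (10) summed to 507 to 947 CPM in placebo and 335 to 476 CPM with DHT, and T and NK cell markers (10, of which 8 were tested) to 5.04 to 8.55 and 2.43 to 3.47 CPM, without overlap. Cholangiocyte markers (8, 6 tested) summed to 78.6 to 90.5 against 50.2 to 101 CPM and neutrophil markers (8, 4 tested) to 1.22 to 3.72 against 2.73 to 4.29 CPM. Of the tested markers of these 6 cell types only Gzma, a T and NK cell gene, was called, and it was lower. Over all genes tested, 1.65% were called, so few calls are no result about these markers. An unadjusted p under 0.05 was reached by 4 of 6 cholangiocyte, 5 of 8 T and NK cell and 2 of 10 stellate markers. It was reached by 0 in the other lists, against 15.9% of all genes. Median log2 fold changes in those 3 lists were −1.03, −1.66 and −0.50. Despite the overlapping sum, 4 of 6 tested cholangiocyte markers were lower without overlap and 0 higher, against 10.9% and 12.7% of all genes. Such markers also numbered 4 lower among T and NK cell, 4 lower among hepatocyte and 1 lower among stellate markers. There was 1 higher among neutrophil markers, and 0 either way among macrophage and endothelial markers. The part of these shifts, and of that in hepatocyte markers, in the values of the Cyp4 genes was not tested.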

How the data were processed

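Per the labels, libraries were made from liver RNA with an NEB kit and read as pairs of 150 bases. Trimmomatic 0.36, STAR 2.5.2b, featureCounts and Subread 1.5.2 were used on build GRCm38, per the submitters' processing notes. The authors deposited whole-number counts for 49212 genes per library, with coordinates and an exon length per gene, unnormalised, per the file headers. For strand, multi-mapped reads and read pairs, the counting options were not given in the sources used here.

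In R 4.3.3, edgeR 4.0.16 was run on the deposited counts: filterByExpr by group, TMM (factors 0.921 to 1.08), robust glmQLFit and glmQLFTest, DHT minus placebo, no covariates, Benjamini-Hochberg over 15126 genes, called at an adjusted p under 0.05. The SE is the log2 fold change divided by the square root of F. TPM was computed from the counts and the deposited lengths. Ratios had 0.5 added to each count. Scripts were tested on simulated data. All 10 Cyp4 genes are named, with the 4 genes of smallest p in each of 5 lists, all tested Cyp4 genes, the sex-linked genes and the 3 most alike genes of Cyp4a12a, Cyp4a10 and Cyp4a14, of which 1 is not reported here. Members and lists were chosen with earlier results of these data known. Alternatives were other scalings and filters, the block, DESeq2 1.42.0, limma 3.58.1 voom, summed copies and leaving out libraries.

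Total counts of 41336844 to 60209462 put 3 counts at 0.0487 to 0.0671 CPM (TMM-scaled). Every pair of libraries differed by more than sampling noise (smallest chi-square per degree of freedom 103.9). By that measure placebo 3 was at 682 from placebo 1 and 660 from placebo 2. Those 2 libraries were at 359 to 555 from the DHT libraries. Mitochondrial genes took 6.8%, 4.8% and 3.2% of counts in placebo 1, 2 and 3. They took 6.4%, 8.5% and 8.0% in DHT 1, 2 and 3, with overlap. What these differences do to the calls was not tested. The groups share the numbers 1 to 3 in their titles. Deviations from group means correlated at 0.25, 0.15 and 0.60 between libraries 1, 2 and 3 of the groups, each over 0.1. The block is therefore given as an alternative, not as a known pairing, since the labels name no shared litter or day. Placebo 2 correlated more with DHT 1 (0.44) and placebo 1 with DHT 2 (0.29), so only the libraries numbered 3 matched their own number best.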

Additional observations from a re-analysis of the deposited data

How the results depend on the processing

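The calls of Cyp4a12a and the direction of Cyp4a12b held in all alternatives run for them. The count of Cyp4 genes called higher was 1 in limma voom, 1 with near-identical copies summed, where a single Cyp4a12 row is left, and 1 to 2 when 1 library was left out. The count called lower was 1 with the replicate block, 1 in DESeq2, 1 in limma voom, 1 without both libraries numbered 3 (added after seeing the data), and 0 to 2 when 1 library was left out. Over all genes, 250 calls became 521 without a low-count filter, 1621 with the replicate block, 1062 in DESeq2, 744 in limma voom, 448 without both libraries numbered 3, and 84 to 862 when 1 library was left out (placebo 1 out, 94, placebo 2 out, 105, placebo 3 out, 862, DHT 1 out, 95, DHT 2 out, 84, DHT 3 out, 165).

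The sign of Cyp4a31 turned with library size alone (0.077) and with the replicate block (0.13), and ranged from −0.80 to 0.71 when 1 library was left out. That of Cyp4a10 turned without both libraries numbered 3 (−0.11) and ranged from −0.30 to 0.56 when 1 library was left out. The cause was not tested. Library size alone moved the median of all genes from −0.02 to 0.17, and the share of calls that were higher, 144 of 250, became 207 of 296. Among the 10 genes, the block changed the calls of Cyp4a32 and Cyp4f14 and no other, and of the other genes put through each alternative, those of Pparg, Elovl3, Cyp4f16 and Cyp4f39. As pairs, the 4 ratios had the same differences (8.82, 8.37, 8.41 and 7.96), with p = 0.25 in an exact sign-flip permutation test, the smallest that 3 pairs allow. Depth limits the Cyp4a12 copies in placebo, with 37 and 5 counts over 3 libraries.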
